A study of Homo sapiens with 6 samples.

Results

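The genes described here encode the factors that release paused RNA polymerase II into elongation: the kinase P-TEFb, the 7SK complex that restrains it, and the ELL family. They are the 10 rows of the deposited count table, of 58735 in all, whose gene name is CDK9, CCNT1, CCNT2, HEXIM1, LARP7, MEPCE, ELL, ELL2, ELL3 or EAF1. Polyadenylated RNA was sequenced from SW1990, an established line of pancreatic ductal adenocarcinoma cells. The EPZ group held 3 libraries of cells exposed to 5 µM EPZ-5676, a small-molecule inhibitor of the histone methyltransferase DOT1L. The control group, NC, also held 3 libraries. The sample characteristics call the controls untreated, whereas the treatment protocol describes an equal volume of the solvent DMSO. No time of treatment is given in the sources used here. All samples came from this line, and the labels do not state that the replicates are separate cultures. The p-values therefore rest on the variation among these 6 libraries, part or all of which may be technical.

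P-TEFb consists of the kinase CDK9 and a cyclin T. It phosphorylates the tail of RNA polymerase II and the pausing factors DSIF and NELF, and so lets a paused polymerase move on. Much of the cell's P-TEFb is held inactive on 7SK, a small nuclear RNA, by the inhibitor HEXIM1, while MEPCE caps the start of 7SK and LARP7 protects its end. ELL proteins raise the rate of elongation and join P-TEFb in the super elongation complex. DOT1L binds AF9 and ENL, which are also subunits of that complex.

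The windows upstream of 2 genes of the 7SK complex are shown, because HEXIM1 and MEPCE were both at higher levels in all EPZ libraries than in any NC library and their windows lay outside the annotated exons of their own genes. The sequences are the 250 bases before the RefSeq start on GRCh38.p14, read on the strand of the gene. Capitals mark the CCAAT box, the GC box GGGCGG, the TATA box TATAAA and the E-box CACGTG, each searched on both strands, and no matches overlap. HEXIM1 lies at chr17:45148225-45148474 and MEPCE, at the first of its annotated starts, at chr7:100428540-100428789.
HEXIM1: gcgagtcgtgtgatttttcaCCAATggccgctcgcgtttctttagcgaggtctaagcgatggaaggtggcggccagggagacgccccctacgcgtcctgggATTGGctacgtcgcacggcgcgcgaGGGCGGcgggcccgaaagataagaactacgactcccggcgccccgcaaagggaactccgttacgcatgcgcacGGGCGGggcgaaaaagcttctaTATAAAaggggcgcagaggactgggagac
MEPCE: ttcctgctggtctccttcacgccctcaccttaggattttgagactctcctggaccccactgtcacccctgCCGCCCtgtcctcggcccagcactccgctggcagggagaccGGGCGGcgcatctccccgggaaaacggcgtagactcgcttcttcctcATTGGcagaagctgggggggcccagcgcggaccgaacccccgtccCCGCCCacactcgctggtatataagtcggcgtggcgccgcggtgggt

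The HEXIM1 window held CCAAT at 2 places, GGGCGG at 2 and TATAAA at 1. The MEPCE window held CCAAT at 1 place and GGGCGG at 3. Of 35116 promoter windows of this length, 32% held CCAAT, 42.6% GGGCGG, 10.7% TATAAA and 6.34% CACGTG. RefSeq windows were found for 9 of the 10 genes, 13 windows in all, and the HEXIM1 window alone among these held TATAAA. Their GC content ran from 29.6% for an internal start of CCNT1 to 82% for CDK9, against a median of 58% over all windows.

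Libraries held 33970420 to 39749648 reads assigned to genes in EPZ cells and 35042563 to 38132352 in NC cells. Of the 15496 genes tested, 15% were called higher and 18.7% lower in EPZ cells (edgeR quasi-likelihood test, Benjamini-Hochberg adjusted p under 0.05 over all genes). The mRNA of DOT1L had a log2 fold change of 0.09 ± 0.13 (adjusted p = 0.636), and of -0.30 (adjusted p = 0.0375) after the GC and length correction described below. An mRNA level does not check the action of an inhibitor on the protein. Levels are given as CPM, the reads of a gene scaled to the size of its library. Of 8 ductal epithelial markers, 6 averaged above 1 CPM, with summed levels of 6570 to 8362 CPM in EPZ libraries and 5382 to 6184 CPM in NC libraries. KRT7, KRT8 and KRT18 made up most of that sum, while KRT19 stayed at 0.202 to 0.612 CPM in EPZ libraries and 0.251 to 0.744 CPM in NC libraries, and CDH1 was at 0 in all 6. Of 4 acinar and 4 endocrine markers 0 averaged above 1 CPM. The acinar sum was 0.0285 to 0.379 CPM in EPZ libraries and 0 to 0.126 CPM in NC libraries, with PRSS1, CPA1 and CELA3A at 0 in all 6, and the endocrine sum 0.0506 to 0.258 CPM in EPZ libraries and 0 to 0.201 CPM in NC libraries, with INS and GCG at 0. The sum of 3 endothelial markers, 1 of them above 1 CPM, ran from 1.37 to 3.25 CPM in EPZ libraries and from 1.63 to 3.18 CPM in NC libraries. The 4 immune markers, 1 of them above 1 CPM, summed to 3.85 to 5.76 CPM in EPZ libraries and 2.09 to 8.07 CPM in NC libraries. The 5 fibroblast markers, 3 of them above 1 CPM, summed to 91.5 to 98.7 CPM in EPZ libraries and 79.9 to 90.2 CPM in NC libraries, mostly COL1A1 and DCN, which differed in opposite directions. COL1A1 was at 56.3 to 64.6 CPM in EPZ libraries and 35.9 to 50.8 CPM in NC libraries, and DCN at 23.3 to 25.9 CPM in EPZ libraries and 27.2 to 37.2 CPM in NC libraries. The ductal marker EPCAM was low, at 0.656 to 1.37 CPM in EPZ libraries and 1.43 to 2.59 CPM in NC libraries. The part of these levels in the results below was not tested.

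All 10 genes passed the filter on low counts. In EPZ cells the kinase CDK9 and the capping enzyme MEPCE rose, and the cyclins CCNT1 and CCNT2, the elongation factor ELL2 and its partner EAF1 fell. HEXIM1, LARP7, ELL and ELL3 did not pass the threshold. In bulk RNA, fewer cells of a type and less RNA per cell cannot be told apart. The 2 genes higher are 20% of the members, beside 15% of all genes tested, and the 4 lower are 40%, beside 18.7%. Every EPZ library lay above every NC library for 3 of the 10, as for 21.8% of all genes tested, and below every NC library for 4, as for 24.2%. The median log2 fold change of the 10 genes was -0.21, beside -0.05 over all genes tested. Without EPZ replicate 1 the counts were 1 higher and 4 lower, beside 8.43% and 11.8% of all genes tested in that fit. Without NC replicate 1 they were 2 higher and 3 lower, beside 10.5% and 11% of all genes tested.

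Fold changes followed the GC content of transcripts over all genes, so each gene is also given after a correction that removes smooth trends with GC content and transcript length from every library. That step also takes away any effect of the inhibitor that follows these properties. After it, 5.4% of all genes tested were called higher and 5.58% lower, and among the 10 genes CDK9 and HEXIM1 were higher and CCNT2 lower.

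**Figure D1:**
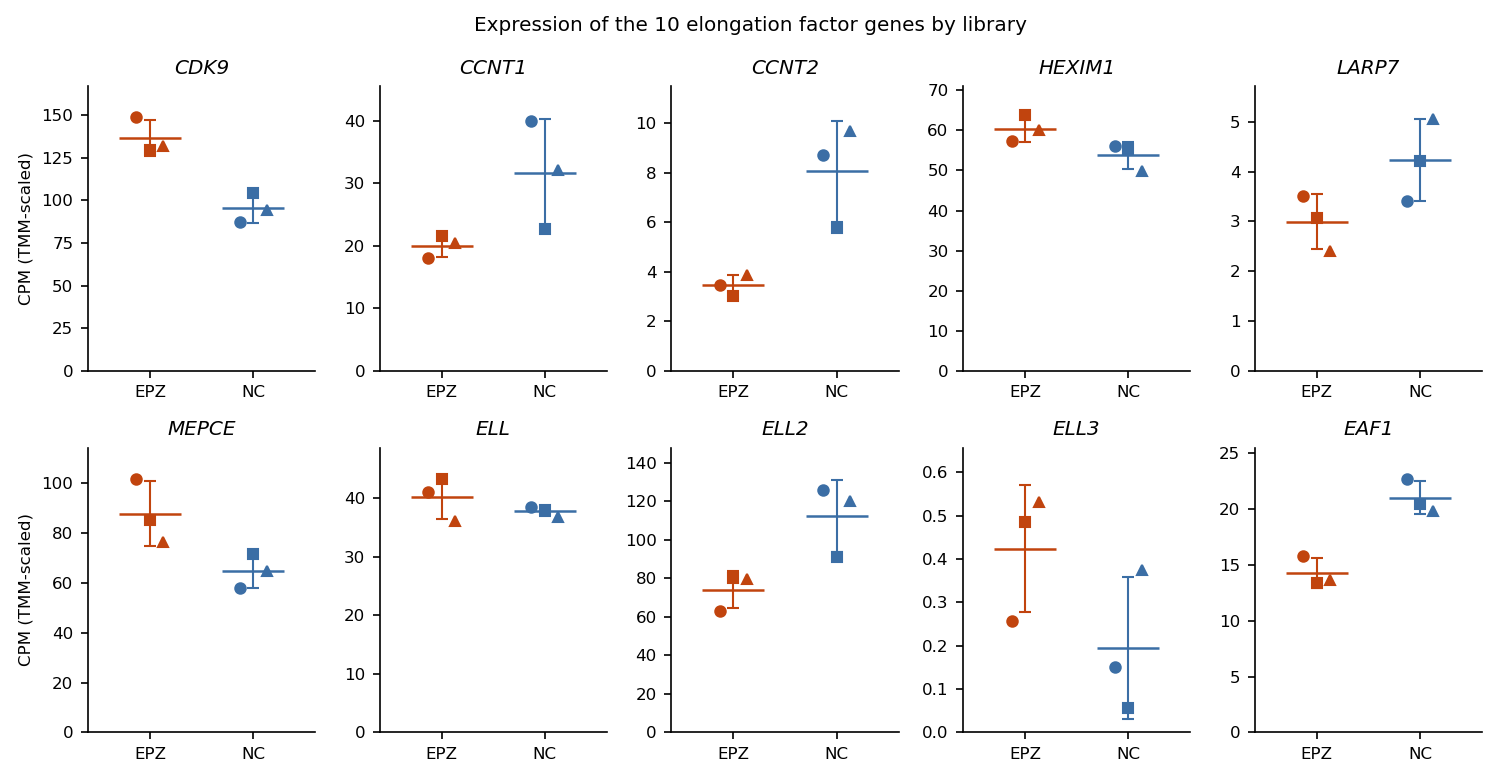
Level of each of the 10 genes in CPM on TMM-scaled library sizes (vertical axes from 0), with EPZ libraries left of NC libraries. Circles, squares and triangles are replicates 1, 2 and 3, horizontal lines are means and bars are SD (n = 3 each). CDK9, HEXIM1 and MEPCE were higher in every EPZ library than in any NC library, and CCNT1, CCNT2, ELL2 and EAF1 lower.

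CDK9 (ENSG00000136807, chromosome 9, 127785679 to 127790787, GRCh38), the catalytic subunit of P-TEFb, rose. It stood at 149, 129.8 and 132 CPM in EPZ libraries, against 87.3, 104 and 94.2 CPM in NC libraries. The groups did not overlap, and EPZ replicate 1 was the highest library. Its log2 fold change was 0.52 ± 0.10 (SE; adjusted p = 0.00108), a ratio of 1.44. The call held in each of 14 alternatives without the correction. After the correction CDK9 was still higher, at 0.32 ± 0.08 (adjusted p = 0.00944). The call held in 7 of 8 alternatives with the correction, this fit included, and missed the threshold without EPZ replicate 1 (0.28, adjusted p = 0.0563).

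The cyclins that pair with CDK9 fell. CCNT2 (ENSG00000082258, chromosome 2, 134918235 to 134959342) had 3.48, 3.02 and 3.87 CPM in EPZ libraries, against 8.73, 5.78 and 9.70 CPM in NC libraries. This was the largest fall among the 10 genes, with a log2 fold change of -1.22 ± 0.24 (adjusted p = 0.000863), a ratio of 0.428. The highest EPZ library lay below the lowest control, NC replicate 2. The counts behind these levels were small, 106 to 153 reads in EPZ libraries and 202 to 362 in NC libraries. After the correction the log2 fold change of CCNT2 was -0.64 ± 0.21, just past the threshold (adjusted p = 0.0496). Among the 8 corrected alternatives, this fit included, CCNT2 passed in 2, with adjusted p from 0.0361 to 0.208.

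CCNT1 (ENSG00000129315, chromosome 12, 48688458 to 48716998), the cyclin of the major form of P-TEFb and the one that HIV Tat binds, was at 18.0, 21.6 and 20.4 CPM in EPZ libraries. NC libraries had 40.0, 22.7 and 32.1 CPM. The groups met closely at NC replicate 2, which lay just above EPZ replicate 2, and the spread within NC was wide. CCNT1 fell by 0.66 ± 0.17 on the log2 scale (adjusted p = 0.00553). Without NC replicate 1, its highest control, the log2 fold change was -0.44 and the call was lost (adjusted p = 0.0577). With the correction CCNT1 was at -0.16 ± 0.12 (adjusted p = 0.479), and none of the 8 corrected alternatives called it (adjusted p from 0.218 to 0.966).

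Within a library, the ratio of reads per kilobase of 2 genes does not depend on library scaling. CDK9 reads per kilobase were 20.4, 14.8 and 15.9 times those of CCNT1 in EPZ libraries, against 5.37, 11.3 and 7.21 times in NC libraries. Against CCNT2, they were 129, 129 and 103 times as many in EPZ libraries and 30.3, 54.6 and 29.3 times in NC libraries. Both kinase-to-cyclin ratios were thus higher in every EPZ library than in any control. With the library trends on GC content and length removed, the ratio to CCNT1 was 12.4 to 13.8 in EPZ libraries and 7.73 to 11.9 in NC libraries. The ratio to CCNT2 was then 84.0 to 107.6 in EPZ libraries and 41.2 to 58.2 in NC libraries. Both ratios were chosen after the values were seen and are given without a test.

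CCNT2 also moved against CCNT1. The ratio of CCNT2 to CCNT1 was 0.158, 0.114 and 0.155 in EPZ libraries, against 0.178, 0.208 and 0.246 in NC libraries. On the log2 scale it fell by 0.57 in EPZ cells with no overlap between the groups. The exact two-sided permutation test gave p = 0.1, the smallest value that 3 libraries against 3 allow, and p = 0.1 after adjustment over the 4 ratios tested. Such a test cannot reach the threshold. Corrected for GC content and length, this ratio was at -0.49 on the log2 scale, still without overlap. The exact permutation test then gave p = 0.1, and p = 0.4 after adjustment over the 4 ratios. The groups came close, with EPZ replicate 1 at 0.164 and NC replicate 1 at 0.173.

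Of the 7SK complex, MEPCE (ENSG00000146834, chromosome 7, 100428790 to 100434126), which methylates the 5′ end of 7SK and stays bound to it, rose. Its levels were 102, 85.3 and 76.2 CPM in EPZ libraries, against 57.8, 71.5 and 64.5 CPM in NC libraries. The groups did not overlap, although EPZ replicate 3 and NC replicate 2 stood close together. The log2 fold change was 0.44 ± 0.12 (adjusted p = 0.0077). Without EPZ replicate 1 it was 0.32 and no longer past the threshold (adjusted p = 0.0673). After the correction MEPCE had a log2 fold change of 0.06 ± 0.09 (adjusted p = 0.763), and it changed sign to -0.02 when EPZ replicate 1 was also left out. The window shown above has a GC content of 66.8% and the transcript 61.7%.

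HEXIM1 (ENSG00000186834, chromosome 17, 45148502 to 45152101), the protein that inhibits CDK9 on 7SK and is named for its induction by hexamethylene bisacetamide, had 57.4, 63.9 and 60.1 CPM in EPZ libraries. NC libraries had 56.1, 55.4 and 49.8 CPM. Every EPZ library was above every control, but by little: EPZ replicate 1 and NC replicate 1 differed by less than the SD of either group. The log2 fold change of 0.17 ± 0.11 missed the threshold (adjusted p = 0.238), as in each of the 14 uncorrected alternatives. Corrected, HEXIM1 was at 0.28 ± 0.09 and past the threshold (adjusted p = 0.0458), a call that none of the other 7 corrected alternatives made, with adjusted p up to 0.217.

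LARP7 (ENSG00000174720, chromosome 4, 112636964 to 112657592), which binds the 3′ end of 7SK, was weakly represented, with 95 to 109 reads per library in EPZ cells and 136 to 189 in NC cells. That gave 3.51, 3.08 and 2.40 CPM in EPZ libraries, against 3.42, 4.21 and 5.07 CPM in NC libraries. EPZ replicate 1 lay above NC replicate 1, so the groups overlapped. The log2 fold change was -0.50 ± 0.27 (adjusted p = 0.156). Corrected, LARP7 was at 0.03 ± 0.27 (adjusted p = 0.957), with the sign reversed, so no direction is given.

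HEXIM1 relative to CDK9, its target, was at a ratio of 0.321, 0.410 and 0.380 in EPZ libraries, against 0.535, 0.442 and 0.440 in NC libraries. The inhibitor's reads per kilobase were thus a smaller share of the kinase's in every EPZ library, by 0.784-fold (exact two-sided permutation test p = 0.1). Corrected, the groups overlapped and the ratio was 0.975-fold (exact permutation p = 0.7). The ratio of LARP7 to MEPCE was 0.0290, 0.0304 and 0.0265 in EPZ libraries, against 0.0497, 0.0495 and 0.0659 in NC libraries. That is 0.525-fold, also without overlap (exact two-sided permutation test p = 0.1, the smallest possible). Corrected, it was 0.996-fold with overlap (exact permutation p = 1). Transcripts of LARP7 and MEPCE differ in GC content more than those of HEXIM1 and CDK9, at 38.1% and 61.7% against 48.2% and 55.1%.

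The RNA at the centre of the complex, RN7SK, was listed at 0 reads in all 6 libraries. It is made by RNA polymerase III and carries no poly(A) tail, and the libraries were enriched on oligo(dT). The 293 loci named as 7SK copies held 40 to 55 reads per library in EPZ cells and 40 to 56 in NC cells. The pool of 7SK was therefore not measured here.

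**Figure D2:**
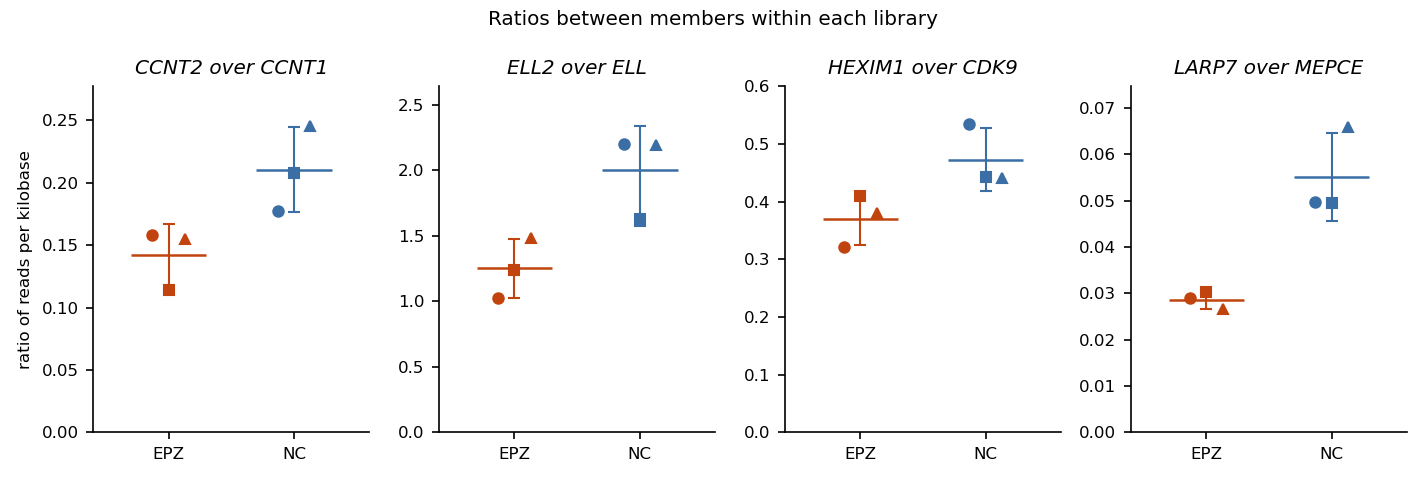
Ratio of reads per kilobase of listed gene length between pairs of genes within each library (vertical axes from 0), with 0.5 added to each count. Points are replicates 1 (circle), 2 (square) and 3 (triangle), lines are means and bars SD (n = 3 each); all 4 ratios, shown without the GC and length correction, were lower in every EPZ library than in any NC library, with an exact p of 0.1 for each. Corrected, this held for CCNT2 over CCNT1 alone.

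Of the ELL family, ELL2 (ENSG00000118985, chromosome 5, 95885098 to 95962071) fell. This member of the super elongation complex is best known from plasma cells, where it acts in the processing of immunoglobulin mRNA. It had 62.9, 80.0 and 79.5 CPM in EPZ libraries, against 126, 91.1 and 120.1 CPM in NC libraries. EPZ replicate 1 was lowest and NC replicate 2 was the control nearest to the EPZ group. The log2 fold change was -0.60 ± 0.13 (adjusted p = 0.00143), and the call held in each of the 14 uncorrected alternatives. Corrected, ELL2 was at -0.09 ± 0.08 (adjusted p = 0.552), and none of the 8 corrected alternatives called it. A processed pseudogene, ELL2P1, held 1 to 25 reads in EPZ libraries and 10 to 50 in NC libraries, few beside the 1955 to 3143 and 3182 to 5005 reads of ELL2.

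ELL (ENSG00000105656, chromosome 19, 18442663 to 18522127), the founding member of the family and a fusion partner of MLL in leukemia, was at 41.1, 43.3 and 36.1 CPM in EPZ libraries. NC libraries had 38.5, 38.0 and 36.9 CPM. The groups overlapped, since EPZ replicate 3 lay below all controls. The log2 fold change was 0.09 ± 0.12 (adjusted p = 0.603). Corrected, ELL was at -0.25 ± 0.11 (adjusted p = 0.145). The sign was reversed under each of the 8 corrected alternatives.

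ELL3 (ENSG00000128886, chromosome 15, 43772600 to 43777543), a testis-enriched member that binds enhancers in mouse embryonic stem cells, was near the limit of detection. It had 8, 17 and 21 reads in EPZ libraries, against 6, 2 and 14 in NC libraries, and the groups overlapped. Its log2 fold change was 1.11 ± 0.80 (adjusted p = 0.303). Corrected, ELL3 was at 1.00 ± 0.81 (adjusted p = 0.489). Its locus overlaps PDIA3 and SERF2 on the other strand, which held 12098 to 16008 and 8443 to 9013 reads in EPZ libraries. In NC libraries they held 18590 to 21557 and 6855 to 8619 reads. Whether reads were counted by strand is unknown here, so the source of the few ELL3 reads is uncertain. On the same strand, AC018512.1, listed as protein-coding, overlaps 4927 bases of ELL3 and held 0 reads in every library. How reads shared by these genes were counted is unknown too, so the low ELL3 count is uncertain whatever the strand setting.

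EAF1 (ENSG00000144597, chromosome 3, 15427355 to 15450635), which binds ELL proteins and stimulates their activity, fell. It had 15.8, 13.3 and 13.6 CPM in EPZ libraries, against 22.7, 20.5 and 19.8 CPM in NC libraries. The groups did not overlap, and the gap between them was wider than the range within either. The log2 fold change was -0.56 ± 0.15 (adjusted p = 0.00767), past the threshold in each of the 14 uncorrected alternatives. Corrected, EAF1 was at -0.27 ± 0.14 (adjusted p = 0.226), and the 8 corrected alternatives did not call it. METTL6 overlaps 13212 bases of EAF1 on the other strand and held 435 to 607 reads in EPZ libraries and 629 to 726 in NC libraries, so the EAF1 count is uncertain if strand was ignored.

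Between the family's members, the ratio of ELL2 to ELL was 1.03, 1.24 and 1.48 in EPZ libraries, against 2.20, 1.61 and 2.19 in NC libraries. ELL2 reads per kilobase exceeded those of ELL in all 6 libraries, but by less in every EPZ library than in any control. The ratio was 0.625-fold in EPZ cells (exact two-sided permutation test p = 0.1, the smallest possible). Corrected, its direction turned, at 1.12-fold with overlap between the groups (exact permutation p = 0.2). The transcripts differ in GC content, at 40.0% for ELL2 and 59.7% for ELL.

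Set side by side per length, the 10 genes spanned a wide range of levels. In EPZ cells, CDK9 had the highest mean at 45.6 ± 3.49 RPKM (CPM divided by gene length in kilobases; mean ± SD, n = 3), then MEPCE at 25.6 ± 3.77 RPKM and HEXIM1 at 16.8 ± 0.911 RPKM. ELL2 at 10.1 ± 1.32 RPKM and ELL at 8.15 ± 0.751 RPKM overlapped between libraries, as did EAF1 at 2.77 ± 0.263 RPKM and CCNT1 at 2.71 ± 0.253 RPKM. LARP7 at 0.734 ± 0.137 RPKM, CCNT2 at 0.381 ± 0.0467 RPKM and ELL3 at 0.147 ± 0.0508 RPKM were lowest. In NC cells CDK9 at 31.8 ± 2.87 RPKM was again highest. MEPCE at 18.9 ± 1.99 RPKM and ELL2 at 15.3 ± 2.54 RPKM overlapped between NC libraries, and so did ELL2 and HEXIM1 at 14.9 ± 0.963 RPKM. ELL followed in NC cells at 7.66 ± 0.165 RPKM. CCNT1 at 4.28 ± 1.17 RPKM and EAF1 at 4.07 ± 0.290 RPKM overlapped in NC cells, as did LARP7 at 1.04 ± 0.202 RPKM and CCNT2 at 0.889 ± 0.225 RPKM. ELL3 was lowest there too, at 0.0675 ± 0.0567 RPKM.

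The direction of change went with GC content. The transcripts of the genes that fell had 37.0% (CCNT2), 40.0% (ELL2), 40.8% (CCNT1) and 45.1% (EAF1) GC, and those that rose had 55.1% (CDK9) and 61.7% (MEPCE). In the bottom GC decile of all genes tested, 49.2% passed the threshold downwards and 0.258% upwards. In the top decile, 0.387% passed it downwards and 49.6% upwards.

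The libraries themselves differed in this respect. In the bottom GC decile, the median deviation of log2 CPM from the mean of each gene was -0.44, -0.19 and -0.21 in EPZ replicates 1, 2 and 3. It was 0.46, 0.11 and 0.34 in NC replicates 1, 2 and 3. CCNT1 and ELL2, both in the GC decile above it, had their highest level in NC replicate 1, then NC replicate 3, NC replicate 2, and their lowest in EPZ replicate 1. The members in the bottom decile itself, CCNT2 and LARP7, did not follow that order. CCNT2 was highest in NC replicate 3 (9.70 CPM) and lowest in EPZ replicate 2 (3.02 CPM). LARP7 was highest in NC replicate 3 (5.07 CPM) and lowest in EPZ replicate 3 (2.40 CPM). The part of the GC trend in the changes was not tested beyond the correction.

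Set against the median log2 fold change of their own GC decile, the genes stood as follows. CCNT2 was at -1.22, where the median of the decile was -0.58. CDK9 was at 0.52 with a decile median of 0.17, and EAF1 at -0.56 with -0.30. These 3 lay farther out than the median of their decile in the direction in which they moved. CCNT1 at -0.66 and ELL2 at -0.60 also lay farther out, but by less, than the median of -0.52 of their decile. So did MEPCE at 0.44, with 0.35 for its decile. ELL3, which had few reads, was at 1.11 with a decile median of 0.17. HEXIM1 at 0.17 was above a median of -0.15, and ELL at 0.09 below a median of 0.35. LARP7 at -0.50 was near the median of -0.58 of its decile. These positions are a description and carry no test.

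**Figure D3:**
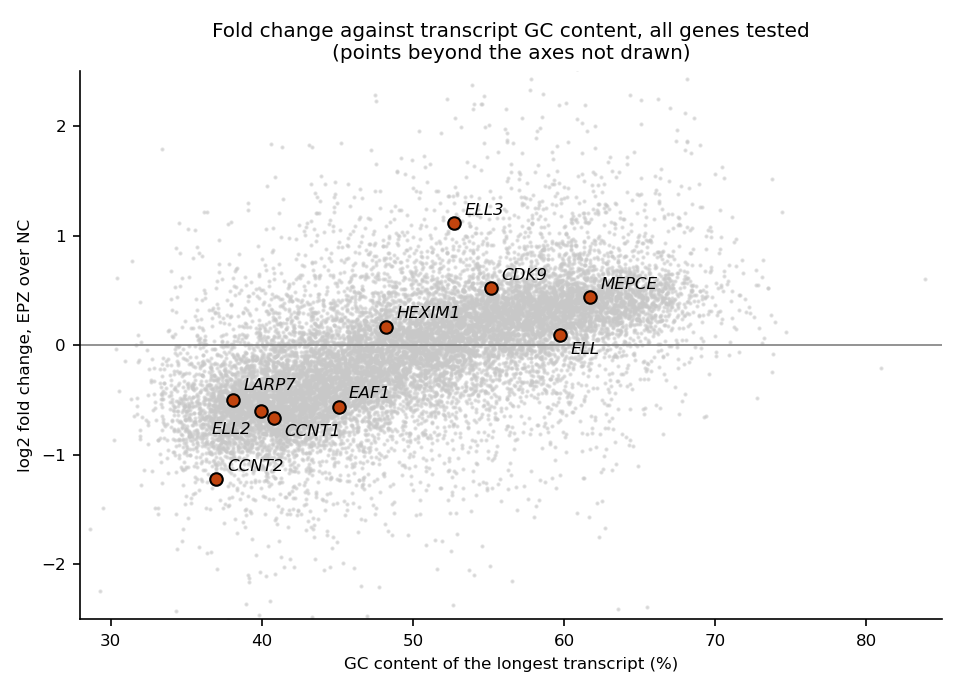
Log2 fold change of EPZ over NC against the GC content (%) of the longest transcript; grey points are genes tested and the filled points the 10 named genes. The grey cloud rises with GC content, CCNT2 lies toward its lower edge at 37.0% GC and CDK9 in its upper part at 55.1% GC.

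**Figure D4:**
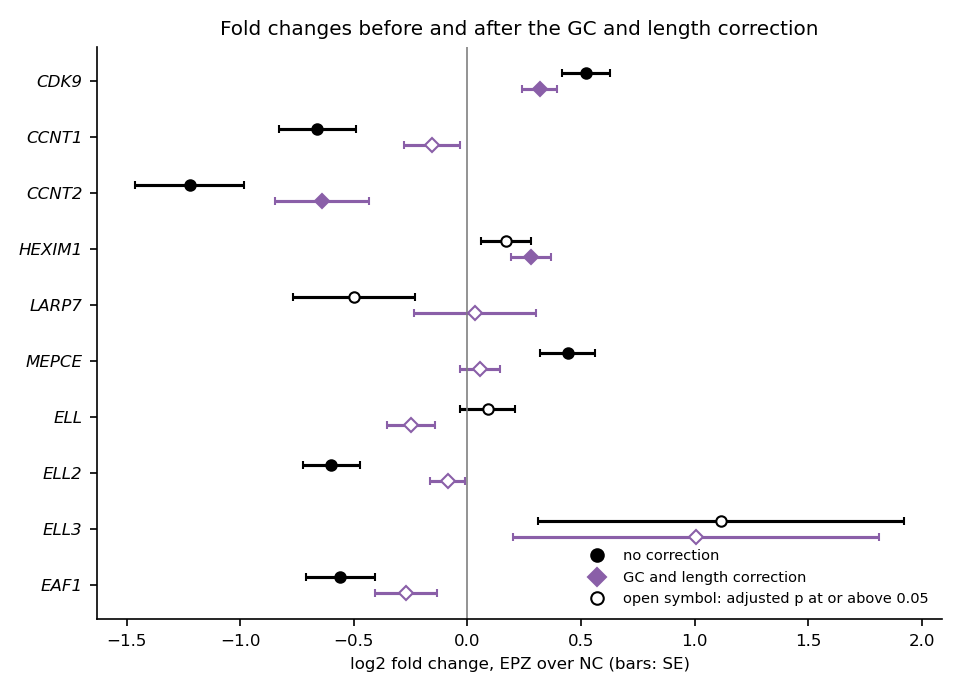
Log2 fold change of EPZ over NC with its SE before (circles) and after (diamonds) the GC and length correction; open symbols have an adjusted p at or above 0.05. After the correction CDK9 at 0.32, HEXIM1 at 0.28 and CCNT2 at -0.64 were past the threshold.

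The other genes of the elongation machinery were taken from 7 lists holding 67 genes, of which 64 were tested. Of the 64, 11 were higher (17.2%) and 22 lower (34.4%), beside 15% and 18.7% of all genes tested. Without EPZ replicate 1, 7 of these genes were higher and 15 lower, beside shares of 8.43% and 11.8% over all genes tested. Without NC replicate 1, 8 were higher and 14 lower, beside shares of 10.5% and 11%. DESeq2 called 18 of the 64 higher and 19 lower, beside shares of 18.3% and 18.2%. After the correction 1 was higher and 2 lower, beside 5.4% and 5.58% of all genes tested. The median log2 fold change was -0.19, and -0.04 after the correction. The shares of 15% higher and 18.7% lower over all genes tested also stand beside the counts of each list below. In GC deciles 1, 2 and 3, the lowest, 49.2%, 46.1% and 38.7% of genes were called lower.

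Among partners in the super elongation complex, 3 of 6 tested genes were lower and 0 higher, with a median of -0.50. AF9 (MLLT3, -0.83 ± 0.19), which also binds DOT1L, and the scaffolds AFF4 (-0.46 ± 0.17) and AFF1 (-0.54 ± 0.21, adjusted p = 0.0497) fell. ENL (MLLT1) stood at 0.29 ± 0.12 and did not pass. None of the 6 passed after the correction.

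Among 7SK and P-TEFb regulators, 7 of 11 tested genes were lower and 1 higher, beside 18.7% and 15% of all genes tested. The RNA-binding proteins SYNCRIP (-0.66 ± 0.12), HNRNPA2B1 (-0.55 ± 0.11) and HNRNPR (-0.59 ± 0.12), which bind 7SK freed of P-TEFb, fell, and the corepressor TRIM28 (0.57 ± 0.11) rose. After the correction only JMJD6, a lysyl hydroxylase, passed (-0.26, adjusted p = 0.0465); it was named for that call.

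In the list of the pausing factors DSIF and NELF, on which P-TEFb acts, 2 of 6 tested genes were higher and 1 lower. NELFB (0.41 ± 0.10) and SUPT5H (0.29 ± 0.11) rose. After the correction none of the 6 passed, with NELFB at -0.04 and SUPT5H at -0.004. The gene that fell, POLR2M (-0.64 ± 0.19), is a subunit of neither complex, so no tested subunit of DSIF or NELF was called lower. Few genes of like GC content were. In GC deciles 8 (SUPT5H, NELFE), 9 (NELFA) and 10 (NELFB), 1.29%, 0.71% and 0.387% of all genes were called lower. In decile 5 (NELFCD) it was 15.3%. The DSIF subunit SUPT4H1 was listed at 0 in all 6 libraries. In the list of the PAF1 complex and elongation chaperones, which also holds the elongation factors TCEA1 and ELOF1, 5 of 12 were lower and 1 higher. TCEA1 (-0.88 ± 0.17), SUPT16H (-0.65 ± 0.14) and RTF1 (-0.49 ± 0.13) fell and ELOF1 (0.41 ± 0.11) rose. SUPT16H, a subunit of the histone chaperone FACT, was still lower after the correction (-0.32, adjusted p = 0.0464). It alone of the 12 passed then, with TCEA1 at -0.33, RTF1 at -0.29 and ELOF1 at 0.06.

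In the elongin and little elongation complexes, where ELL also acts, 1 of 6 was lower, ICE1 (-0.56 ± 0.15), and 1 higher, ELOB (0.43 ± 0.11). None of the 6 passed after the correction, with ICE1 at -0.21 and ELOB at 0.08. Of the other kinases and phosphatases of the polymerase tail, 3 of 11 were lower and 2 higher. All subunits of the CDK-activating kinase fell, namely CCNH (-1.004 ± 0.19), MNAT1 (-0.998 ± 0.20) and CDK7 (-0.54 ± 0.14), while the phosphatases CTDSP1 (0.41 ± 0.10) and CTDSP2 (0.30 ± 0.10) rose. After the correction none of these 5 passed, with CCNH closest (-0.46, adjusted p = 0.0711). Of RNA polymerase II subunits, 4 of 12 were higher and 2 lower, with POLR2E (0.47 ± 0.10) higher and POLR2B (-0.72 ± 0.16) lower. POLR2G (0.31 ± 0.11) was higher before and after the correction (0.31, adjusted p = 0.0202). It alone of the 12 passed after the correction, with POLR2E then at 0.14 and POLR2B at -0.27.

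**Figure D5:**
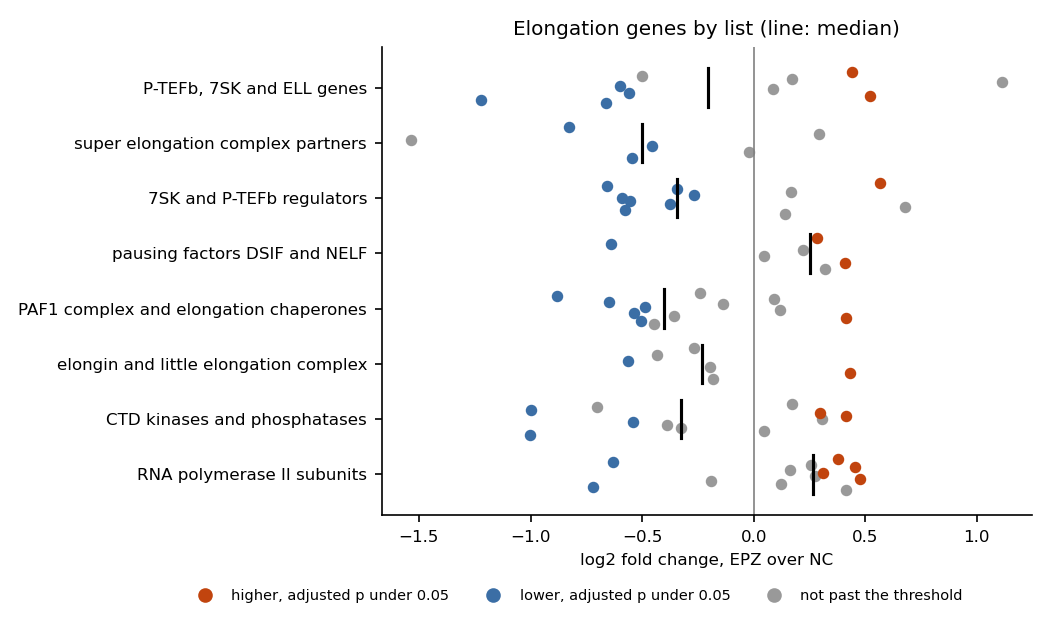
Log2 fold change of EPZ over NC for each tested gene of the 10 named genes (top row) and of the 7 other lists; filled colours mark adjusted p under 0.05, grey the rest, and vertical lines list medians. Medians ran from -0.50 for partners in the super elongation complex to 0.27 for polymerase subunits.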

How the data were processed

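Polyadenylated RNA of 6 SW1990 samples was analysed, grouped by sample title. Per the labels' protocols, libraries were made from oligo(dT)-enriched mRNA with dUTP in the second strand. Per the submitters' processing notes, reads were aligned by HISAT2 2.2.1 against GRCh38. The file deposited by the authors gives raw read counts per gene; no source used here names the counting tool, strand setting or annotation release. All 58735 genes had the start and end of GENCODE release 29, which supplied the GC content and length of the longest transcript.

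Counts were fitted with edgeR 4.0.16 (R 4.3.3) on the whole table: filterByExpr (minimum count 10), TMM scaling and the robust quasi-likelihood test. The correction entered natural splines (5 degrees of freedom each) of GC content and log2 length as offsets per library. CPM and RPKM used TMM-scaled sizes and the deposited gene lengths. Alternatives were RLE and upper-quartile scaling, 2 other filters, protein-coding genes alone, DESeq2 1.42.0, limma-voom (limma 3.58.1), a replicate block, the correction, and each library left out. The fits were tested on simulated data of 15496 genes. With no trend, the uncorrected fit made 6 false calls and the corrected fit 5, and each recovered 19 of 100 genes changed 1.5-fold. With an added GC trend of preset strength, the false calls were 5470 and 10. The corrected fit then recovered 88 of 100 genes changed 2-fold and 18 of 100 changed 1.5-fold. The correction of the ratios, which takes the fitted library trends of both genes out of their ratio, was added after the data were seen. All 10 genes were named, and from each list up to 3 called genes per direction with the smallest p and up to 2 uncalled genes of highest expression. Some genes that this rule names are not reported here. The members, lists and correction were chosen with earlier results of these data known. Figures used matplotlib 3.10.9.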

Additional observations from a re-analysis of the deposited data

How the results depend on the processing

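Without the GC and length correction, the 10 genes gave 2 higher and 4 lower in every scaling, filter and tool tried (RLE, upper-quartile, 2 other filters, protein-coding genes alone, DESeq2, limma-voom) and with a replicate block. Over all genes tested, those fits called 8.27% (no filter) to 19.8% (minimum count of 50) higher and 10.9% to 23.9% lower. Leaving out a library gave 1 to 2 higher and 3 to 4 lower, beside 8.43% to 17.4% and 11% to 19.8% of all genes tested. Of the single-gene results in all these uncorrected settings, 137 of 139 kept both direction and side of the threshold. With the correction, 2 were higher and 1 lower; with the correction and a replicate block, 1 and 0; and corrected with any library omitted, 0 to 1 higher and 0 to 1 lower. Of all genes tested, 5.4% were higher and 5.58% lower with the correction, and 4.45% and 4.42% with the block as well. The corrected fits without a library called 2.48% to 5.35% higher and 3.2% to 5.1% lower. Of the 80 single-gene results with the correction, 26 kept both direction and side of the threshold. Another 38 kept their direction but lost the call, 1 gained a call and 15 changed sign. LARP7 was at 0.0341 with the correction and 0.0373 with the block as well, and ELL at -0.25 in both. Over the fits that left out a library, corrected or not, log2 fold changes ran from -0.63 to 0.20 for LARP7, -0.32 to 0.16 for ELL and -0.0205 to 0.53 for MEPCE. Of the 67 other elongation genes, 64 were tested, and 11 (17.2%) were higher and 22 (34.4%) lower, beside 15% and 18.7% of all genes tested. DESeq2 called 18 of the 64 higher, beside a share of 18.3% over all genes tested. The replicate block gave 7 higher and 17 lower, beside 10.8% and 14.3%. Without a library there were 7 to 16 higher and 14 to 24 lower. With the correction, 1 was higher and 2 lower, with the block as well 1 and 0, and with any library omitted 0 to 1 and 0 to 3. The shares of all genes tested given above for those fits stand beside these counts too. The 4 ratios kept their direction without each library in turn and with no count added. With the correction, chosen after seeing the data, ELL2 over ELL turned to 0.16 on the log2 scale, HEXIM1 over CDK9 was at -0.036, LARP7 over MEPCE at -0.0054 and CCNT2 over CCNT1 at -0.49; the cause was not tested.

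The shared replicate numbers gave no sign of a pairing. Across genes, deviations from the group means correlated at -0.11, -0.09 and 0.05 between libraries of the same number. Between libraries of different number the correlations ran from -0.08 to 0.15. Deviations from the mean of so few libraries depend on each other, so these values cannot exclude a batch shared by number. Every pair of libraries within a group differed by more than sampling noise. LARP7, CCNT2 and ELL3 had at most 189, 362 and 21 reads per library, the fewest of the 10 genes.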
